A study of Mus musculus with 6 samples.

Results

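The mitochondrial ribosomal protein genes are the nuclear genes whose symbols start with Mrpl (large subunit, also called 39S in mammals) or Mrps (small subunit, 28S) followed by a digit. By this rule 77 of the 21958 protein-coding genes in the deposited table were members, of which 48 belonged to the large and 29 to the small subunit. They were followed in synaptoneurosomes, a filtered brain fraction enriched in pinched-off synapses, prepared from the hippocampus and neighbouring cortex of FVB mice aged 6 to 8 weeks. One group of 3 libraries held RNA from polyribosomes, the mRNAs carrying several ribosomes, collected on sucrose gradients after NMDA receptor stimulation with 50 µM NMDA and 10 µM glutamate for 30 s, then 120 µM APV and 20 min of incubation. The other group of 3 libraries held total RNA of unstimulated synaptoneurosomes. The groups therefore differed in both stimulation and fraction. Per the methods, unstimulated samples were also held on ice in cycloheximide, whereas stimulated ones were warmed for the incubation. These differences cannot be told apart here. Each preparation came from pooled mice and was split into aliquots, so that libraries with the same replicate number share a preparation.

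Mitochondria carry their own ribosome, which translates the few respiratory chain proteins encoded in mitochondrial DNA. Its RNAs are made inside the organelle, whereas all of its proteins are encoded in the nucleus, translated on cytosolic ribosomes and imported. A part of these proteins descends from bacterial ribosomal proteins and another part was added during the evolution of mitochondria. Mitochondria at synapses depend on this supply, and the comparison asks whether the mRNAs of these proteins were more or less abundant on synaptic polyribosomes than in synaptic total RNA.

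The gene counts summed to 5294482 to 7361580 per polyribosome library and to 1044955 to 3738022 per total RNA library. Reads of members made up 0.0736% to 0.0925% of these counts. Total RNA replicate 3 held 769 counts on members, with at most 36 on one member and fewer than 10 on 39 of the 75 members tested. Markers of excitatory neurons and synapses were present in every library, with a summed level of 8697 to 11875 counts scaled to library size (CPM) and log2 fold changes above 0 for 5 of 7 genes (median 0.39). Astrocyte markers were present too, with log2 fold changes above 0 (polyribosomes over total RNA) for all 8 genes listed (median 0.57) and sums of 44441 to 48726 CPM against 34211 to 40057 CPM. All 6 oligodendrocyte and all 6 microglia markers were also above 0 on the log2 scale, as were 4 of 5 endothelial and 2 of 4 interneuron markers. None of these markers was at 0 in any library, and their part in the results on members was not tested. In such bulk RNA, fewer cells of a type and less RNA per cell cannot be told apart.

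The start codon surroundings are shown for selected members toward both ends of the range. Members that ranked between Mrps34 and Mrpl43 by log2 fold change are left out. The bases around the AUG are where a scanning cytosolic ribosome begins translation. The lines give 9 bases before the start codon, the start codon and 3 bases after it in the Gencode vM21 principal transcript (GRCm38), 5′ to 3′. Capitals mark the start codon with the bases at positions −3 and +4, counted with the A of the start codon as +1.
Mrps12: ggcggcGagATGTcc
Mrpl14: tgggatCccATGGcc
Mrpl2: ggccggCccATGGcg
Mrps33: ggtgaaGaaATGTct
Mrps34: gacactGacATGGcg
Mrpl43: accgtaGccATGAcc
Mrpl33: cggtggAccATGCtg
Mrps9: acggccAacATGGcc
Mrpl42: ctaaggAtcATGGct
A purine at −3 stood in 71 of the 75 members tested (94.7%), against 86.8% of the 11946 tested genes with a usable start. G at +4 was found in 52 members (69.3%), against 52.7% of those genes. The 4 members without the purine were all large subunit genes, namely Mrpl14, Mrpl2, Mrpl3 and Mrpl30. Of these, Mrpl14 and Mrpl2 had the highest log2 fold changes among large subunit genes, at 1.02 and 0.98, and Mrpl3 and Mrpl30 stood at −0.22 and −0.24.

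Members were weakly expressed genes in these synaptic RNAs, and 75 of the 77 passed the expression filter. The median member had 9.13 CPM in total RNA and 10.8 CPM on polyribosomes, against 23.9 and 22.7 CPM for all genes tested. Their transcripts were short, with a median of 1316 bases against 3278, so that the level per length came closer, at 6.28 CPM per kb in total RNA against 7.69 for all genes tested. On polyribosomes the medians were 7.33 CPM per kb for members and 7.41 for all genes tested. The median GC content of 50.7% was like that of all genes tested (50.5%).

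Most proteins of a subunit are present in 1 copy per ribosome, but their mRNA levels per length were spread widely. Among large subunit genes the highest level in total RNA was 20.7 times the lowest, and among small subunit genes 16.3 times. Mrpl52, a large subunit protein found in mitochondrial ribosomes, had the highest level in total RNA at 27.7 CPM per kb, with 29.8 on polyribosomes. Mrps21, the counterpart of bacterial S21, followed with 25.6 CPM per kb in total RNA and 37.4 on polyribosomes. Mrpl20 and Mrpl30, which correspond to bacterial L20 and L30, came next with 20.7 and 19.7 CPM per kb in total RNA. After Mrps21, the next small subunit genes were Mrps18a with 13.7 and Mrps15 with 12.7 CPM per kb. The lowest levels in total RNA were those of Mrpl32 with 1.34, Mrpl47 with 1.503 and Mrps30 with 1.57 CPM per kb. Levels per length depend on the annotated principal transcript, which had 418 and 488 bases for Mrpl52 and Mrps21. For Mrpl32, Mrpl47 and Mrps30 it had 3013, 3364 and 3319 bases. Not divided by length, Mrpl52 and Mrps21 had 11.6 and 12.5 CPM in total RNA. Mrpl32, Mrpl47 and Mrps30 had 4.04, 5.06 and 5.22 CPM, so the spread per length rests in part on annotated length. The order of levels was largely shared between the fractions, with a Pearson r of 0.91 and a Spearman rho of 0.88 across the 75 members (a description across genes that share the same 6 libraries). The SD of the log2 level per kb was 0.97 on polyribosomes and 0.94 in total RNA for the large subunit, and 0.90 and 0.85 for the small subunit.

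**Figure D1:**
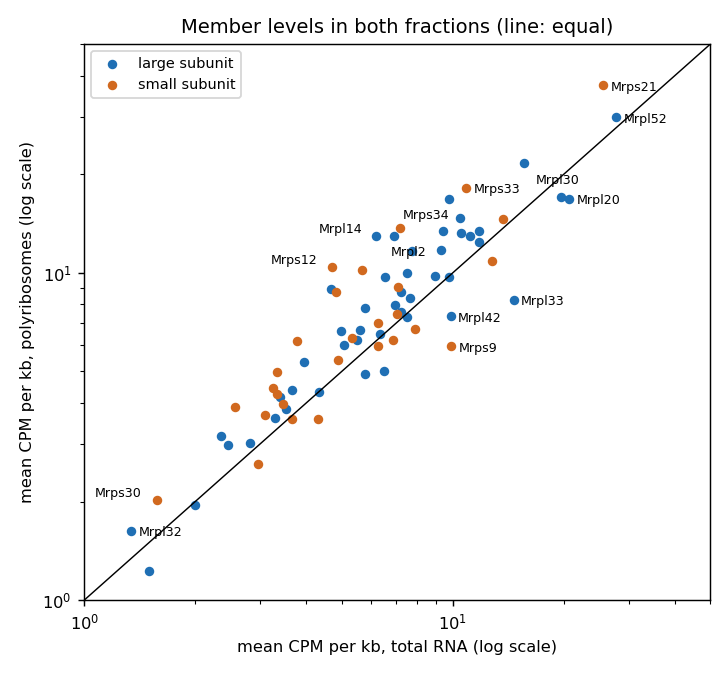
Mean level of each of the 75 members tested, as CPM per kb of transcript, in total RNA (x axis, log scale) and on polyribosomes (y axis, log scale), each point the mean of 3 libraries. The line marks equal levels; Mrpl52 and Mrps21 sit at the upper end and Mrpl32 and Mrps30 at the lower end, while Mrpl33, Mrpl42 and Mrps9 lie below the line.

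The polyribosomal level of the whole set was slightly above its level in total RNA, by a similar factor in both subunits. Large subunit genes summed to 591, 534 and 598 CPM in polyribosome replicates 1 to 3 and to 527, 517 and 471 CPM in total RNA replicates 1 to 3. Small subunit genes summed to 330, 321 and 337 CPM on polyribosomes and to 293, 288 and 267 CPM in total RNA. Neither subunit's sums overlapped between the groups. The means were 574 ± 35.2 against 505 ± 30.0 CPM for the large subunit (SD, n = 3), a ratio of 1.14, and 329 ± 7.98 against 283 ± 14.01 CPM for the small subunit (SD, n = 3), a ratio of 1.17. This held for the TMM scaling used here, which places the median gene at a log2 fold change of 0.00. When libraries were scaled by total counts alone, the median of all genes tested moved to −0.11, the ratios of the sums fell to 1.06 and 1.08, and the sums of the groups overlapped for both subunits. With that scaling 49 of 75 members (65.3%, against 40.9% of all genes tested) were above 0 on the log2 scale, and 0 were called at an adjusted p under 0.01, where 0.343% of all genes tested were called higher and 2.99% lower.

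**Figure D2:**
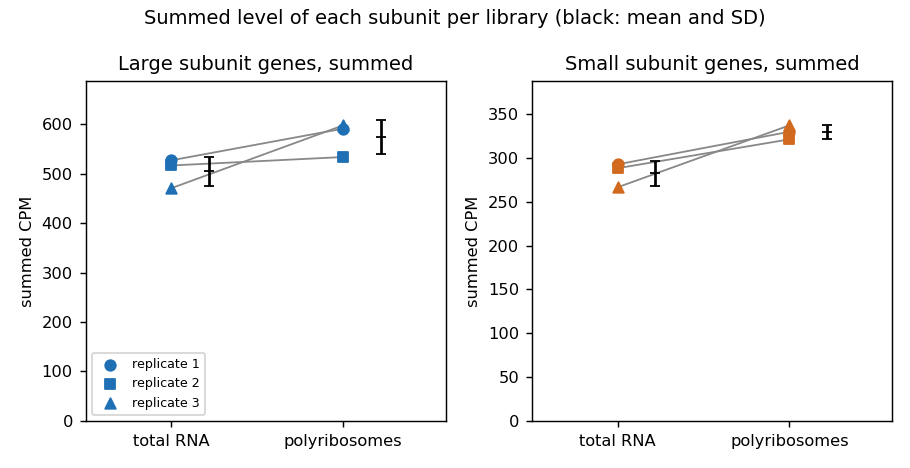
Summed CPM of the large subunit genes (left) and the small subunit genes (right) in each library, with lines joining libraries of the same replicate number and black marks for the mean and SD of each group of 3. The polyribosome sums lie above the total RNA sums in all 3 pairs of both subunits, at 534 to 598 against 471 to 527 CPM (large) and 321 to 337 against 267 to 293 CPM (small).

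The balance between the subunits overlapped between polyribosomes and total RNA. Large subunit counts divided by small subunit counts gave 1.79, 1.66 and 1.77 in the polyribosome libraries and 1.80, 1.79 and 1.77 in the total RNA libraries. The highest polyribosome value lay within the range of the total RNA libraries. The median log2 fold change (polyribosomes over total RNA) was 0.16 over the 47 large subunit genes tested and 0.23 over the 28 small subunit genes, with 0.00 over all 12255 genes tested. By same-numbered pair the large subunit medians were 0.13, 0.091 and 0.35, and the small subunit medians were 0.19, 0.36 and 0.44. The large minus small difference was −0.072 overall and −0.052, −0.27 and −0.092 in pairs 1 to 3, with a mean of −0.14 ± 0.12 (SD, n = 3 pairs). The sign was the same in each of the 3 pairs, and the difference changed sign without total RNA replicate 2 (0.015). Counting proteins by their place in the ribosome, where Mrps18a and Mrps30 belong to the large subunit and Mrps36 is left out as a subunit of the 2-oxoglutarate dehydrogenase complex, gave medians of 0.18 and 0.31.

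At the study's threshold, the fit without the pairing called no member. With edgeR's quasi-likelihood test at an adjusted p under 0.01, 0.71% of all genes tested were called higher on polyribosomes and 2.36% lower, against 0 of 75 members in either direction. DESeq2 called 0 members in both directions as well, against 2.1% higher and 3.18% lower of all genes tested. At an unadjusted edgeR p under 0.05, 14 members were higher (18.7%, against 15.4% of all genes tested) and 1 was lower (1.33%, against 17.1%). The laxer adjusted p of 0.05 was passed by 4 members as higher (Mrps34, Mrpl2, Mrps12 and Mrpl28, 5.33% against 6.52%) and by 1 as lower (Mrps9, 1.33% against 8.85%). The direction of the values leaned upward, since 55 of 75 members (73.3%, against 50.1%) had a log2 fold change above 0. This applied to 36 of 47 large and 19 of 28 small subunit genes. Members higher in all 3 pairs numbered 29 (38.7%, against 30.2%), and members lower in all 3 pairs numbered 8 (10.7%, against 30.6%). The 3 polyribosome libraries lay above the 3 total RNA libraries without overlap for 14 members (18.7%, against 17.4%) and below them for 2 members (2.67%, against 18.9%). By DESeq2 8 members were higher at an unadjusted p under 0.05 (10.7%, against 13.1%) and 1 was lower (1.33%, against 14% of all genes tested). The share of members that was higher thus lay above or below that of all genes tested depending on the measure, while the share that was lower lay below it in each of these counts. No test over the list was made. The median standard error was 0.26 for members and 0.21 for all genes tested, and members had lower levels. Shares called at a p threshold, here and in the other fits, thus compare genes measured with unlike precision. How far this entered the shares was not tested.

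**Figure D3:**
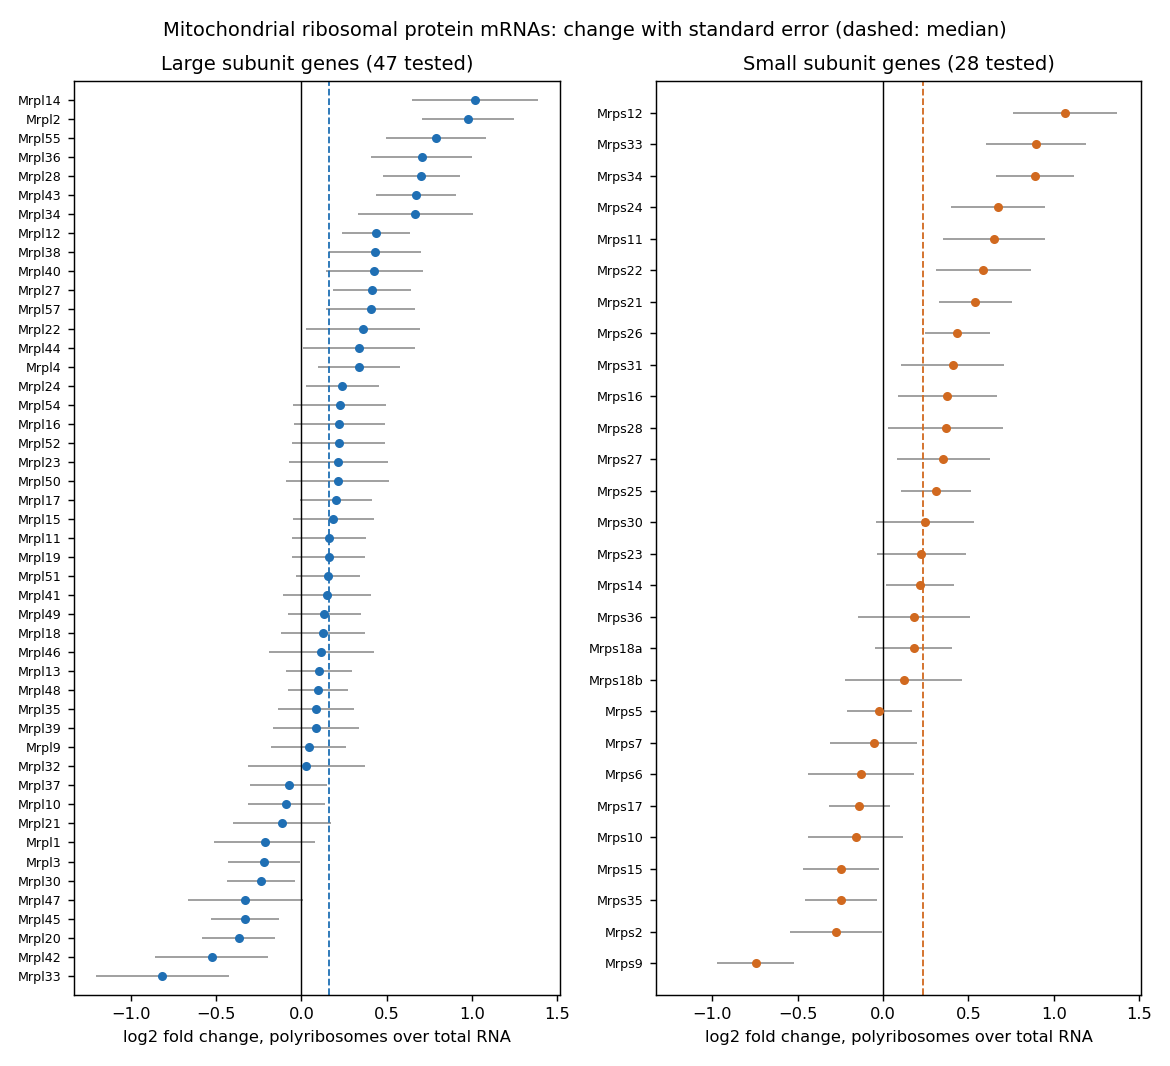
Log2 fold change of each member tested, polyribosomes over total RNA, for the 47 large subunit genes (left) and the 28 small subunit genes (right), sorted by value, with bars for the standard error and a dashed line at the subunit's median. The medians lie at 0.16 and 0.23, and the values run from −0.81 (Mrpl33) to 1.07 (Mrps12), with standard errors whose median is 0.26.

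With the replicate number as a block, which uses the shared preparation of same-numbered libraries, 6 members passed the threshold of 0.01 as higher (8.0%, against 11.8% of all genes tested) and 1 as lower (1.33%, against 13.2%). The 6 were Mrps12, Mrpl2, Mrps33, Mrps34, Mrpl28 and Mrpl43, and the 1 lower was Mrps9. Values of these members are given next, first for the small subunit.

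Mrps12, on chromosome 7 (28739641 to 28741820, minus strand, GRCm38), encodes the counterpart of bacterial S12, a protein at the decoding centre where codons are read. Its level was 8.39, 9.64 and 9.47 CPM on polyribosomes and 3.23, 6.36 and 2.88 CPM in total RNA. The groups did not overlap. The log2 fold change was 1.07 ± 0.30 (SE, edgeR adjusted p = 0.0311), and with the replicate block it was 1.05 (edgeR adjusted p = 0.00133). In total RNA this rested on 13, 19 and 3 counts.

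Mrps34, on chromosome 17 (24895116 to 24897502, plus strand), encodes a small subunit protein without a bacterial counterpart. Its level was 11.8, 13.7 and 12.4 CPM on polyribosomes and 6.95, 7.03 and 5.75 CPM in total RNA. All polyribosome libraries were above all total RNA libraries, and the spread within each group was narrow. The total RNA levels rested on 28, 21 and 6 counts. The log2 fold change was 0.89 ± 0.23 (SE, edgeR adjusted p = 0.0217), and with the block 0.89 (edgeR adjusted p = 0.00117). The gene lies inside the span of Mapk8ip3 on the other strand and overlaps Nme3. Since the use of strand in counting is not given, reads of these genes may not have been separated.

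Mrps33, on chromosome 6 (39801804 to 39810988, minus strand), encodes another small subunit protein of this mitochondrial class. Its level was 17.04, 15.97 and 27.4 CPM on polyribosomes and 7.45, 11.4 and 17.3 CPM in total RNA. The groups overlapped because both replicate 3 libraries were high, yet each pair showed the higher value on polyribosomes. Its log2 fold change came to 0.89 ± 0.29 (SE, edgeR adjusted p = 0.0515), and with the block 0.80 (edgeR adjusted p = 0.000626). Without total RNA replicate 1 the unblocked value was 0.56.

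Mrpl2, on chromosome 17 (46646229 to 46650139, plus strand), encodes the counterpart of bacterial L2, which lies near the site where peptide bonds form. Its level was 12.2, 10.8 and 17.1 CPM on polyribosomes and 5.46, 7.37 and 8.63 CPM in total RNA. The total RNA levels rested on 22, 22 and 9 counts. The groups did not overlap. The log2 fold change was 0.98 ± 0.27 (SE, edgeR adjusted p = 0.0285), and with the block 0.90 (edgeR adjusted p = 0.00114). Without the expression filter it was the 1 member called higher, with an edgeR adjusted p of 0.0082, where 2.84% of genes were called higher and 3.38% lower.

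Mrpl28, on chromosome 17 (26123520 to 26126613, plus strand), corresponds to bacterial L28. Its level was 21.4, 15.1 and 17.3 CPM on polyribosomes and 10.9, 12.7 and 7.67 CPM in total RNA. The lowest polyribosome value exceeded the highest total RNA value. This gave a log2 fold change of 0.70 ± 0.23 (SE, edgeR adjusted p = 0.0496), and with the block 0.72 (edgeR adjusted p = 0.00206). With a GC content and length offset beside the block it was 0.26 (edgeR adjusted p = 0.341), and it was no longer called.

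Mrpl43, on chromosome 19 (45005014 to 45006442, minus strand), encodes a large subunit protein without a bacterial counterpart. Its level was 17.3, 17.6 and 14.0002 CPM on polyribosomes and 7.70, 12.4 and 12.5 CPM in total RNA. The groups were apart, although polyribosome replicate 3 was close to the higher total RNA libraries. The log2 fold change was 0.67 ± 0.23 (SE, edgeR adjusted p = 0.064), and with the block 0.72 (edgeR adjusted p = 0.00293). Without total RNA replicate 1 the unblocked value was 0.39.

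Mrps9, on chromosome 1 (42851233 to 42905683, plus strand), encodes the counterpart of bacterial S9, whose tail reaches the site of the peptidyl tRNA. Its level was 8.52, 6.93 and 9.88 CPM on polyribosomes and 15.4, 12.4 and 14.4 CPM in total RNA. The polyribosome libraries were all below the total RNA libraries. The difference was −0.75 ± 0.23 on the log2 scale (SE, edgeR adjusted p = 0.0383), and with the block −0.78 (edgeR adjusted p = 0.00155).

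Mrpl14, on chromosome 17 (45686322 to 45698495, plus strand), corresponds to bacterial L14, a protein at the face that meets the small subunit. Its level was 5.41, 7.23 and 12.4 CPM on polyribosomes and 3.48, 4.69 and 3.84 CPM in total RNA. The total RNA levels rested on 14, 14 and 4 counts. The groups did not overlap, but polyribosome replicate 3 was well above the other two. On the log2 scale the difference was 1.02 ± 0.37 (SE, edgeR adjusted p = 0.0713), or 0.66 without polyribosome replicate 3, and the gene overlaps Tmem63b on the other strand.

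Mrpl33, on chromosome 5 (31596935 to 31664384, plus strand), corresponds to bacterial L33 and had the lowest value of all members. Its level was 6.22, 4.22 and 1.44 CPM on polyribosomes and 8.19, 7.03 and 5.75 CPM in total RNA. Each pair was lower on polyribosomes, and the groups overlapped through polyribosome replicate 1. The difference came to −0.81 ± 0.39 on the log2 scale (SE, edgeR adjusted p = 0.162), on 7 counts in polyribosome replicate 3. It was −0.48 without that library and −1.298 without polyribosome replicate 1. The gene overlaps Rbks on the other strand.

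**Figure D4:**
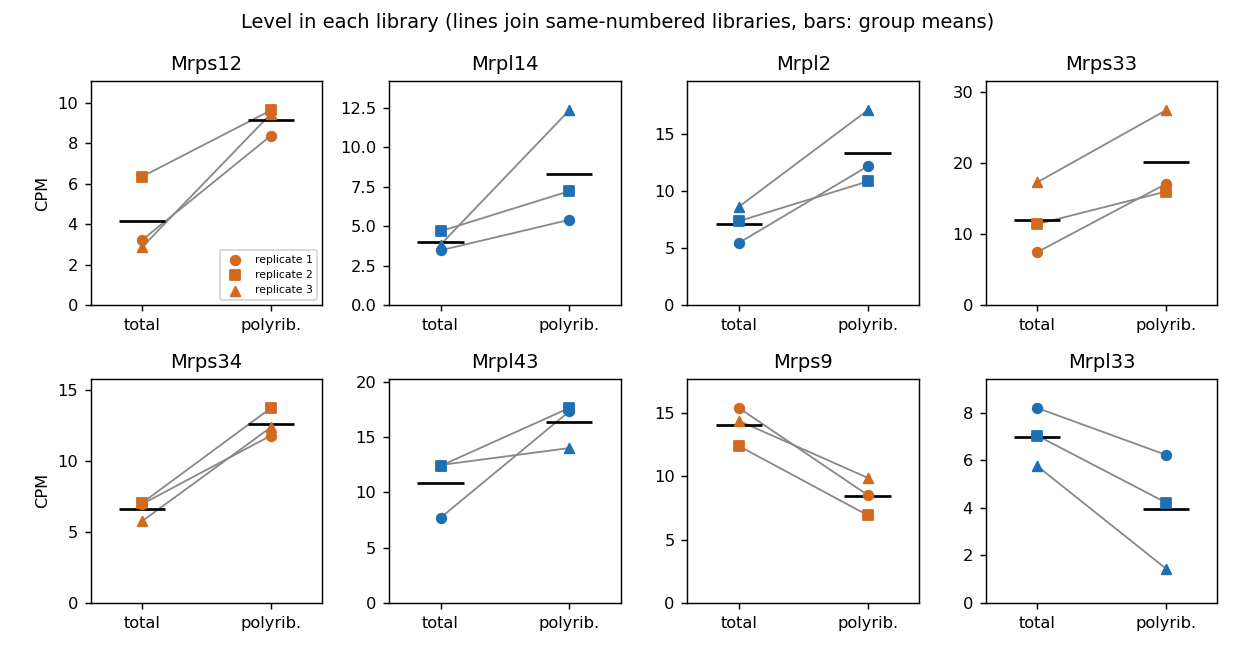
CPM of 8 members in each total RNA and polyribosome library (y axes start at 0 and differ between panels), with lines joining libraries of the same replicate number and black bars at the group means. Mrps12, Mrpl14, Mrpl2, Mrps33, Mrps34 and Mrpl43 are higher on polyribosomes in all 3 pairs, and Mrps9 and Mrpl33 are lower in all 3 pairs.

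Other members toward the upper end did not pass the threshold in either fit. In the large subunit, Mrpl55, the counterpart of bacterial L31, had 8.37 CPM on polyribosomes against 4.40 CPM in total RNA (group means, log2 fold change 0.79 ± 0.29, SE). Mrpl36, the counterpart of L36, had 8.98 against 6.04 CPM, with a log2 fold change of 0.70 ± 0.30 (SE). In the small subunit, Mrps24, the counterpart of S3 despite its number, had 10.2 against 5.65 CPM, with a log2 fold change of 0.67 ± 0.27 (SE). Mrps11, which corresponds to S11, had 9.23 against 5.08 CPM, and Mrps22, without a bacterial counterpart, had 7.41 against 4.51 CPM. The libraries did not overlap for Mrpl55, Mrps24, Mrps11 and Mrps22, and they did for Mrpl36. In total RNA replicate 3, Mrpl55, Mrps24, Mrps11 and Mrps22 had 3, 3, 2 and 3 counts. The log2 ratios of Mrps11 in pairs 1 to 3 were 0.35, 0.43 and 2.13. The span of Mrps11 overlaps that of Mrpl46, and the span of Mrps24 overlaps that of Urgcp.

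At the lower end of the large subunit, Mrpl42 had 4.90 CPM on polyribosomes against 6.58 CPM in total RNA, with a log2 fold change of −0.53 ± 0.33 (SE). Mrpl20 stood at −0.37 ± 0.21 (SE), with 12.8 against 15.8 CPM. Mrpl45, a protein near the exit of the nascent chain tunnel, had 13.4, 12.5 and 10.7 CPM on polyribosomes against 14.4, 15.7 and 17.3 CPM in total RNA. With Mrps9 it was the other member whose polyribosome libraries all lay below the total RNA libraries, at a log2 fold change of −0.33 ± 0.20 (SE, edgeR adjusted p = 0.272). Mrpl47 had a log2 fold change of −0.33 and Mrpl30 of −0.24, with standard errors of 0.34 and 0.20. In the small subunit, Mrps2 (−0.28), Mrps15 (−0.25), Mrps35 (−0.25), Mrps10 (−0.16) and Mrps17 (−0.14) followed Mrps9, with edgeR adjusted p of 0.449 or more.

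The stalk, which recruits translation factors to the large subunit, is built on Mrpl10 with copies of Mrpl12. Mrpl12 had 17.7, 17.5 and 17.7 CPM on polyribosomes and 14.2, 13.4 and 9.59 CPM in total RNA. These groups did not overlap, at a log2 fold change of 0.44 ± 0.20 (SE, edgeR adjusted p = 0.144). With the GC content and length offset the value was 0.051, and 0.081 with the block as well. Mrpl10 had 18.9, 17.3 and 13.6 CPM on polyribosomes and 18.6, 20.8 and 10.5 CPM in total RNA, with overlap and a log2 fold change of −0.089 ± 0.23 (SE). Further members carry names that do not match their place. Mrps18a, one of several relatives of bacterial S18 and now placed in the large subunit, stood at 0.18 ± 0.23 (SE), Mrps30, also in the large subunit, at 0.25 ± 0.29 (SE), and Mrps36 at 0.18 ± 0.33 (SE), on the log2 scale.

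By origin, the medians lay further apart in the small than in the large subunit, a difference that was not tested. By symbol, the 13 small subunit members classed as without a bacterial counterpart had a median log2 fold change of 0.31, with 12 of 13 above 0. They included Mrps18a (0.18), Mrps30 (0.25) and Mrps36 (0.18), which by place are not small subunit proteins. Mrps18a and Mrps18b (0.12) were put in this class although both are relatives of S18. The 15 with a bacterial counterpart had a median of −0.021, with 7 of 15 above 0, and included both extremes, Mrps12 and Mrps9. By pair the first class gave 0.19, 0.44 and 0.39, and the second −0.0028, 0.0067 and 0.49, so that pair 3 did not separate them. The negative median of the second class did not hold when libraries were left out, since it lay between 0.00031 and 0.17 in those 6 fits, with the highest values, 0.16 and 0.17, when total RNA replicate 1 or 2 was absent. The first class gave 0.22 to 0.40 in the same fits. After the offset for GC content and length the median of the second class was 0.16 as well. In the large subunit the 30 members with a bacterial counterpart had a median of 0.18, and the 17 without one had 0.16.

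The changes of members followed GC content in part, as they did across the whole table. Across the 75 members, GC content of the principal transcript and log2 fold change had a Pearson r of 0.35 and a Spearman rho of 0.34, against 0.53 and 0.53 across all genes. The Pearson r was 0.47 for the large and 0.18 for the small subunit. Transcript length on the log2 scale had an r of −0.21 among members and −0.33 across all genes, and the 25 shortest, middle and longest members had median log2 fold changes of 0.23, 0.24 and 0.099. These are descriptions across genes measured in the same libraries.

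With a GC content and length offset in the blocked fit, the median log2 fold change of large and small subunit genes was 0.11 and 0.20, and 47 of 75 members (62.7%, against 50.9% of all genes tested) were above 0. In this fit 4 members were called higher (5.33%, against 8.76% of all genes tested) and 2 lower (2.67%, against 7.78%). The higher members were Mrps33 at 0.86, Mrps14 at 0.59, Mrps25 at 0.58 and Mrpl17 at 0.55. With the block alone Mrps14, Mrps25 and Mrpl17 stood at 0.21, 0.29 and 0.18 and were not called. Their GC contents were 39.6%, 45.1% and 43.0%, and Mrps25 overlaps Nr2c2. Mrps33 and Mrps9 (−0.88) were the 2 members called in both blocked fits. Mrpl20, at −0.59 (−0.33 with the block alone), was the other lower member. The GC-rich Mrps34 (60.6% GC) had 0.32, against 0.89 with the block alone, and Mrpl14 (59.4% GC) had 0.28, against 0.84 with the block alone, and neither was called. The values of Mrps12 and Mrpl2 with block and offset were 0.65 (edgeR adjusted p = 0.0742) and 0.46 (edgeR adjusted p = 0.144), and that of Mrpl43 was 0.57 (edgeR adjusted p = 0.0237). The sign changed for 16 members, of which 12 had been above 0, and Mrpl52, Mrps18a and Mrps17 were among the 16.

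**Figure D5:**
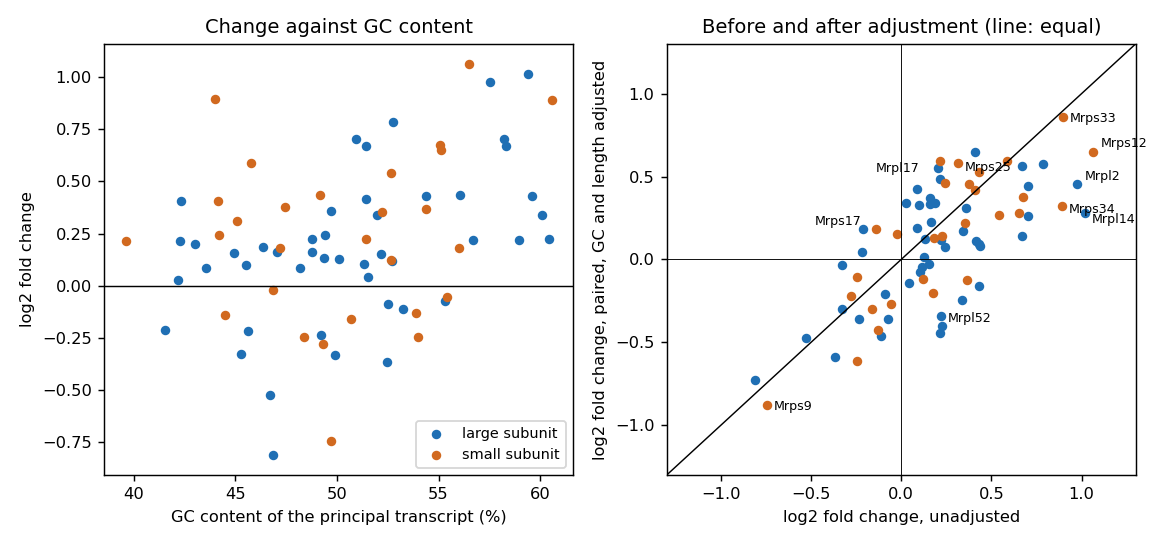
Left, log2 fold change of the 75 members tested against the GC content (%) of their principal transcript. Right, log2 fold change after the replicate block and the GC content and length offset against the value without either, where the line marks equal values; Mrps33 and Mrps9 stay near the line at 0.86 and −0.88, and Mrps34, Mrpl14 and Mrpl2 move toward 0.

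Pairs of libraries ranked the members with modest likeness. The log2 ratios of pairs 1 and 2 correlated with a Pearson r of 0.45 across members, those of pairs 1 and 3 with 0.24 and those of pairs 2 and 3 with 0.35, against 0.66, 0.58 and 0.58 across all genes tested. The members lay at a median abundance percentile of 28.5 in the table.

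Many members share a start region with a neighbouring gene transcribed the other way. A start of another gene within 1000 bases head to head was found for 29 of the 77 members (37.7%), against 10.5% of the genes of the table with a strand and 14.6% of the genes tested. Mrpl46 and Mrps11 form such a pair with each other, with spans that overlap by 412 bases at their starts. The median log2 fold change was 0.14 for members with such a neighbour and 0.22 for the others. The stretches between the starts are shown for Mrps12, whose neighbour Sars2 encodes the mitochondrial seryl tRNA synthetase, and for Mrpl43, whose neighbour Peo1 encodes the mitochondrial DNA helicase Twinkle, because both members were called in the blocked fit and both neighbours also encode mitochondrial proteins. They are from RefSeq (GRCm38.p6), on the minus strand and 5′ to 3′ toward the member, at chr7:28741822-28741968 and chr19:45006443-45006557, and capitals mark CCAAT in the first and the ETS motif CCGGAAG in the second.
Mrps12: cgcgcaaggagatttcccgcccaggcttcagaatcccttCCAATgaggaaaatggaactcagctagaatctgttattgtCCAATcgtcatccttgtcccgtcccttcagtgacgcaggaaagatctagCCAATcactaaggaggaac
Mrpl43: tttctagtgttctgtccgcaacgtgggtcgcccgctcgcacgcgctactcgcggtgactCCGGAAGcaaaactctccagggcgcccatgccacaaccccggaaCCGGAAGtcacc
The Mrps12 stretch held CCAAT 3 times and the Mrpl43 stretch held CCGGAAG 2 times. In the window from 250 bases before to 50 bases after the start, CCGGAAG or its reverse complement CTTCCGG stood in 25 of 74 promoter records of the 68 members matched (33.8%), against 8.86% of all 32851 promoters. AAGATGGCG, the core of the YY1 motif, stood in 10.8% against 1.403%, and the motif of NRF1, matched on its palindrome, in 4.05% against 0.971%. The letters AAGATGGCG also surround the start codon of members such as Mrps24, Mrps27 and Mrps10. In these the start codon follows 25, 17 and 16 bases of the principal transcript, and the window reaches 50 bases. A match can therefore be the start codon itself, and how many matches were was not tested. CCAAT was found in 40.5% against 37.4%, and TATAAA in 6.76% against 13.6%. Both strands were searched, and the end of CCGGAAG and the start of AAGATGGCG share 3 letters (AAG), so that both can match in 1 stretch. The 23 tested members with CCGGAAG had a median log2 fold change of 0.35 and the 43 without it 0.13, which describes these genes without a test.

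The other genes of the mitochondrial ribosome, its translation factors and its assembly gave a mixed picture. The table held 45 of the genes listed, and 41 of them were tested, with a median log2 fold change of 0.0084 and 21 above 0. At the 0.01 threshold edgeR called 0 of them higher and 1 lower (against 0.71% and 2.36% of all genes tested), while 5 and 6 had an unadjusted p under 0.05 (against 15.4% and 17.1%). With the block 3 of the 41 were higher and 4 lower, against 11.8% and 13.2% of all genes tested. The higher were C1qbp, Tufm and Gadd45gip1, and the lower were Mtif2, Guf1, Ptcd3 and Mterf3. The 1 lower without the block was Mtif2, the initiation factor that brings the initiator tRNA to the mitochondrial ribosome. It had 7.65 CPM on polyribosomes against 15.8 CPM in total RNA (log2 fold change −1.12 ± 0.23, SE, edgeR adjusted p = 0.0085). With the block its value was −1.11 (edgeR adjusted p = 5e-06), and the log2 ratios of pairs 1 to 3 were −1.39, −0.81 and −0.72. The unblocked call was lost (0 called) when any library other than total RNA replicate 3 was left out. The share of all genes called in those fits is not given. Among the 12 translation factors the median was −0.084, and among the 23 assembly and rRNA modification factors 0.095. The 6 ribosomal proteins that carry other symbols had a median of 0.26, with Gadd45gip1 of the large subunit at 1.00 ± 0.28 (SE, edgeR adjusted p = 0.0316) and Ptcd3 of the small subunit at −0.75 ± 0.23 (SE, edgeR adjusted p = 0.0439).

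The 2 members that failed the expression filter were Mrps18c and Mrpl53. Mrps18c, another relative of S18, had 18, 10 and 7 counts on polyribosomes and 13, 4 and 1 counts in total RNA. Mrpl53 had 0 counts in all 6 libraries, which allows up to 0.41 to 0.57 CPM in the polyribosome libraries and 0.80 to 2.87 CPM in the total RNA libraries at 3 counts each, for counting error alone. Its span on chromosome 6 (83109095 to 83109939) lies inside that of Ccdc142 and ends at the same base. Of all 77 members, 23 overlap another gene of the table, and pseudogenes named after Mrpl23, Mrpl48 and Mrps36 exist, so that their counts are less certain.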

How the data were processed

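Ribosomal RNA was depleted, and the authors aligned reads to GRCm38 (mm10) with STAR 2.5.2b and deposited, for each protein-coding gene of Gencode vM6 (basic set), unnormalized whole-number counts. The labels name a TruSeq kit that by itself does not mark strand. The methods describe a TruSeq protocol modified with dUTP, which gave strand-specific libraries. The use of strand in counting is not given in the sources used here, so overlapping genes are uncertain. The deposited table also holds the authors' DESeq2 comparison, namely a mean normalized signal, a log2 fold change with its standard error, a Wald score, and a p-value with its adjustment, none of which was used. Counts were fitted with edgeR 4.0.16 in R 4.3.3 (TMM, filterByExpr, quasi-likelihood test, group as the only term) over all 12255 genes kept, with Benjamini-Hochberg adjusted p under 0.01 as threshold, the study's. CPM are TMM-scaled, and pair ratios use log2 CPM with a prior count of 2. Repeats of the fit used DESeq2 1.42.0, RLE or no scaling factors, no filter or a stricter one, the replicate number as a block, a GC content and length offset (Gencode vM21, 4 spline degrees of freedom per covariate), or 5 of the 6 libraries. The aliquots of one preparation share a number in the labels, and same-numbered libraries deviated together from their group means (r = 0.37, 0.26 and 0.38 over genes), which was treated as pairing. Replicates differed by more than sampling noise, and the labels do not say whether the 3 preparations were otherwise independent, so p-values measure the spread between these samples. The fit was tested on simulated counts of 12139 genes, where it called 2 of 11943 unchanged genes, 40.8% of genes with a log2 change of 1 and 95.9% with a log2 change of 2. These counts were drawn independently from the fit's own dispersions, without shared preparations or a trend with GC content or length. The rates do not cover those features, and they are over genes of all levels, not the weakly expressed members alone.

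The members, gene lists and classes were chosen with earlier results of these data known. Members named are those called, the 6 at each end of each subunit by log2 fold change, the 3 with the highest CPM per kb in total RNA in each subunit, the stalk members, members whose symbol and place differ, and members failing the filter. Members called in an alternative fit, and the sequences shown, were chosen after their values were seen. The limits given for Mrpl53 cover counting error only, whereas standard errors come from the edgeR fit and include the spread between replicates.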

Additional observations from a re-analysis of the deposited data

How the results depend on the processing

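The medians of large and small subunit genes and the ratios of their summed CPM kept their sign under every alternative run, with large subunit medians of 0.050 to 0.20 outside the leave-one-out fits and small subunit medians of 0.12 to 0.31. Leaving out each library gave 0.13 to 0.23 and 0.19 to 0.30, ratios of 1.10 to 1.18 and 1.13 to 1.19, 0 members called in either direction, and a large minus small difference of −0.14 to 0.015, which changed sign in part of the fits. Among members overlapping no other gene that difference was −0.018. Members called higher numbered 0 in the unblocked fit and 1 without the expression filter (1.32%, against 2.84% of genes). There were 4 at the laxer threshold of 0.05 (5.33%, against 6.52% of all genes tested) and 6 with the replicate block (8.0%, against 11.8%). With the block and the GC content and length offset there were 4 (5.33%, against 8.76%). The number called lower under the last 3 settings was 1 (1.33%, against 8.85%), 1 (1.33%, against 13.2%) and 2 (2.67%, against 7.78%). For the other mitochondrial ribosome genes, 1 was called in the unblocked fit, 2 by total counts only, 4 without the filter, 7 with the replicate block, 0 with the offset, 2 with both, and 0 to 1 when leaving out each library. Of all genes in each fit, 0.343% were called higher and 2.99% lower by total counts only, and 2.84% and 3.38% without the filter. The replicate block called 11.8% higher and 13.2% lower, and block and offset together 8.76% and 7.78%. Shares over all genes are not given here for the offset alone or for the fits that left out a library. The call of Mtif2 in the unblocked fit was lost without any of 5 of the 6 libraries. The median of the large subunit genes without a bacterial counterpart was 0.16, against 0.046 by total counts only, 0.085 with the offset, 0.091 with block and offset, and 0.11 to 0.25 when leaving out each library.

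Among named members the sign changed with the offset for Mrpl52 (−0.31, and −0.34 with the block), Mrps17 (0.16 and 0.18) and Mrps18a (−0.24 and −0.20). When single libraries were left out, Mrps18a ranged from −0.023 to 0.29, below 0 without total RNA replicate 2 (−0.023). Mrpl10 ranged from −0.23 to 0.064, above 0 when total RNA replicate 2 (0.064) or polyribosome replicate 3 (0.015) was absent. The cause of these changes was not tested. A minimum of 10 counts in every library kept 14 of the 31 named members. Total RNA replicate 3 is the shallowest library, and 39 of the members tested had fewer than 10 counts in it.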
